A study of Oryza sativa Japonica Group with 4 samples.

Results

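The genes described here are 6 rice genes whose names place them in chitin-directed and cell-wall defence. They are 4 genes named as chitinases (one named only chitinase, Chib3H-h, Cht2 and Cht-3), the xylanase inhibitor gene RIXI and the lectin gene Agglutinin. They were found by symbol or synonym in a RefSeq gene table matched by gene number to the array's annotation. In that table they are LOC4351188 (chitinase), LOC4351187 (Chib3H-h), LOC4349267 (Cht2), LOC4342114 (Cht-3), LOC4351194 (RIXI) and LOC4335068 (Agglutinin). The name chitinase is shared by several genes, RIXI among them, and the one meant here was fixed by its probe set. Names do not settle what a gene encodes, and protein sequences were not used. The genes described are 6 of 17905 genes with a probe set and hold 9 of 57258 probe sets. The name Cht2 is carried by 2 genes of the table, of which one, also called Cht8 and OsChia2a, has probe sets in the annotation used here. The genes were chosen with the difference between the groups in view, so their values in that comparison are a description and no test of them is given.

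RNA came from whole roots of 17-day-old seedlings of Oryza sativa japonica, variety TNG67, and was read on Affymetrix GeneChip arrays for rice, which report an intensity for each probe set, a group of short probes to one transcript. All plants germinated for 3 days in the dark and were then kept for 2 weeks in nitrogen-free hydroponic solution, so both groups were nitrogen-starved. The plus glutamine group then spent 30 min in solution with 2.5 mM glutamine (2 arrays), and the minus N group spent 30 min in fresh solution without nitrogen (2 arrays). The repeats are labelled biological and numbered 1 and 2 in both groups, and the labels do not say whether they came from separate cultures, so part of the spread between them may be technical.

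Chitinases cut chitin, the polymer of fungal cell walls and insect cuticles, and plants make many of them, grouped by sequence into unrelated families that share this activity. Fragments of chitin released from a fungus are bound at the plant cell surface by receptors with LysM domains, in rice CEBiP together with the kinase CERK1, and this switches on defence genes that include chitinases themselves. Xylanase inhibitors of the RIXI type resemble class III chitinases in sequence but bind and block microbial xylanases, which attack the xylan of the plant's own wall. Hevein-type lectins, to which the agglutinins of cereal grains belong, bind chitin oligomers without cutting them. Several chitinases are also present in healthy roots, where they count as standing defence.

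The arrays fell together by replicate number more than by treatment. Taken over probe sets, none of which is a replicate, log2 intensities correlated at r = 0.995 for the number 1 pair and r = 0.990 for the number 2 pair, against r = 0.983 between the plus glutamine repeats and r = 0.975 between the minus N repeats. The ratio of 3′ to 5′ signal of rice Gapdh controls, a measure of RNA integrity, was 6.14 and 4.41 in the plus glutamine arrays numbered 1 and 2 and 6.85 and 4.30 in the minus N arrays. Its part in the differences below was not tested. Each difference is therefore given within each number as well. The silicon transporter gene Lsi1, a marker of rice root, lay at 7279 and 8999.3 in plus glutamine and 7321.4 and 8613.5 in minus N roots. The other 3 root markers measured, all overlapping between the groups, were less steady. The log2 differences within numbers 1 and 2 were 0.20 and -0.13 for the silicon transporter gene Lsi2 and 0.34 and -0.33 for the iron transporter gene IRT1. NAS1, a nicotianamine synthase gene, read 149.3 and 68.9 with glutamine against 31.8 and 100.9 in minus N roots, or 2.23 and -0.55 within the numbers. The light-harvesting gene CAB2R, a marker of green tissue, was also bright, at 10033.7 and 9995.4 against 8605.5 and 10545.8. The green marker gene RBCS-C was less steady, at 635.6 and 874.8 with glutamine against 300.2 and 1031.7 in minus N roots. Its log2 differences within numbers 1 and 2 were 1.08 and -0.24. The 3 green marker genes measured, of 4 matched, summed to 10673.5 and 10874.5 with glutamine and to 8909.7 and 11581.8 without nitrogen, and the 2 groups overlapped. CAB2R made up most of each sum. No green marker gene was listed at 0, and the dimmest, RBCS-A, lay between 4.0 and 4.3. The 9 seed marker genes measured summed to 341.1 and 404.4 with glutamine and to 353.2 and 359.4 without nitrogen.

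The gene named only chitinase had intensities of 82.7 and 64.8 in the plus glutamine arrays numbered 1 and 2, against 39.0 and 17.3 in the minus N arrays. Both glutamine-treated samples lay above both untreated ones, and the minus N repeats were the farther apart of the 2 groups. The mean log2 intensity was 6.19 ± 0.25 (SD, n = 2) with glutamine and 4.70 ± 0.83 (SD, n = 2) without nitrogen, a 2.82-fold difference (log2 difference 1.49, SE 0.43 from limma, which pools the spread over all probe sets). The fold was 2.12 within number 1 and 3.75 within number 2. In intensity units the differences within the 2 numbers were close, 43.7 and 47.5, and minus N replicate 2 was the lowest of the 4 arrays. In whole-root RNA, more cells of a type and more RNA per cell cannot be told apart, here and for every gene below.

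Chib3H-h carries a name of the class III chitinase series and is the next gene to chitinase along chromosome 11 of the RefSeq assembly ASM3414082v1. Its intensities were 83.8 and 57.5 with glutamine, against 39.7 and 24.5 in minus N roots, and the groups did not overlap. On the log2 scale the means were 6.12 ± 0.38 with glutamine and 4.96 ± 0.49 without nitrogen (SD, n = 2 each), a 2.23-fold difference (log2 difference 1.15, SE 0.34). The 2 numbers gave like folds, 2.11 and 2.35. In both genes the arrays numbered 1 were the brighter of each group: by 1.28 times with glutamine and 2.25 times without nitrogen for chitinase, and by 1.46 and 1.62 times for Chib3H-h. Whether the 2 probe sets respond to each other's transcript was not tested, and intensities of different probe sets do not compare transcript amounts.

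RIXI, also named XIP-I and Chib3H-a, stands on the same stretch of chromosome 11, and its probe set was dim on every array. It read 8.9 and 9.3 with glutamine, against 5.7 and 6.3 in minus N roots. The groups did not overlap and the repeats were close, with log2 means of 3.19 ± 0.04 and 2.58 ± 0.10 (SD, n = 2 each). The difference was 1.52-fold (log2 difference 0.60, SE 0.21), or 1.56-fold within number 1 and 1.48-fold within number 2. In intensity units it was 3.2 and 3.0, small beside the arrays' medians of 19.7 to 22.2. The probe set ranked at the 31st and 27th percentile of its array with glutamine and at the 12th and 13th percentile without nitrogen. No detection calls were used, so it is unknown how far these values lie above background, and with all values raised to at least the 20th percentile of all intensities (7.1) the log2 difference was 0.36.

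Cht2 is named OsChia2a in the series of Chia chitinases, which in plants are a family apart from the class III enzymes. Its gene lies on chromosome 10. The probe set read 351.6 and 435.2 with glutamine, against 255.7 and 202.6 in minus N roots, without overlap. Its log2 means were 8.61 ± 0.22 and 7.83 ± 0.24 (SD, n = 2 each), a 1.72-fold difference (log2 difference 0.78, SE 0.25). Glutamine and minus N arrays numbered 1 differed 1.38-fold and those numbered 2 differed 2.15-fold. Here the order of the numbers turned between groups: replicate 2 was the brighter with glutamine and the dimmer without nitrogen. The second probe set of the gene (suffix _s_at, shared between transcripts) read 199.7 and 343.1 with glutamine and 211.3 and 163.0 without nitrogen. On that probe set the groups overlapped, with a fold of 0.95 within number 1 and 2.10 within number 2, so the higher value with glutamine in number 1 rests on 1 of the 2 bright probe sets. The third was dim, at 8.2 and 8.4 against 6.9 and 7.7, a 1.14-fold difference.

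Cht-3, also named OsChia1c, had intensities of 125.4 and 167.7 with glutamine, against 101.2 and 100.4 in minus N roots. The minus N repeats were almost equal, the groups did not overlap, and plus glutamine replicate 2 was the highest of the 4 arrays. The log2 means were 7.18 ± 0.30 and 6.66 ± 0.01 (SD, n = 2 each), a 1.44-fold difference (log2 difference 0.52, SE 0.24), made up of 1.24-fold within number 1 and 1.67-fold within number 2. The other probe set read 49.4 and 78.3 against 39.0 and 59.9. The groups overlapped on it, but each number was higher with glutamine, by 1.27-fold and 1.31-fold. Both probe sets of Cht-3 are of the kind marked _x_at by the array's maker, which can bind transcripts of related genes, and the part of such binding was not tested.

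Agglutinin, on chromosome 4, had intensities of 51.0 and 74.6 with glutamine, against 23.6 and 38.2 in minus N roots, and the groups did not overlap. The log2 means were 5.95 ± 0.39 and 4.91 ± 0.49 (SD, n = 2 each), a 2.05-fold difference (log2 difference 1.04, SE 0.34). The folds within the numbers were alike, 2.16 and 1.95. In contrast to chitinase and Chib3H-h, the arrays numbered 2 were the brighter in both groups, so the difference between repeats ran the other way. The shared sign of the difference between groups follows from how the genes were chosen.

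**Figure D1:**
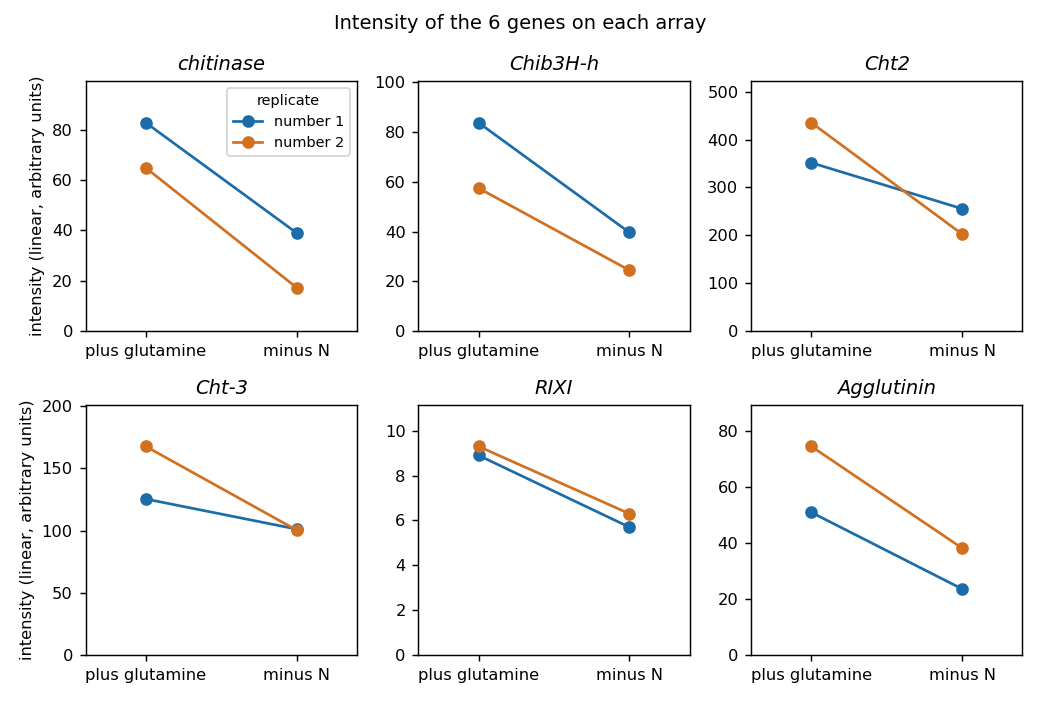
Intensity of each gene (y axis, linear, arbitrary units, from 0, with its own scale per panel) in plus glutamine and minus N roots, 1 point per array, with lines joining arrays of the same replicate number. For all 6 genes both plus glutamine points lie above both minus N points; number 1 is the upper line for chitinase and Chib3H-h and number 2 for RIXI and Agglutinin.

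For all 6 genes the lower plus glutamine value exceeded the higher minus N value, as for 8.36% of all probe sets, while 8.22% were separated in the other direction. Of the 6, chitinase, Chib3H-h and Agglutinin were at least 2-fold apart as well, against 0.393% of all probe sets in this direction and 0.0332% in the other. Agglutinin stands just above that limit at 2.05-fold, and Cht2 is the next below it at 1.72-fold. A value at least 2-fold higher with glutamine within each number separately was measured for chitinase and Chib3H-h, against 0.0926% of all probe sets. Agglutinin fell short of it in number 2 at 1.95-fold. These counts follow from how the genes were chosen, and nothing is read from them. The median log2 difference was 0.91 over the 6 genes and -0.01 over all probe sets.

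No probe set of the array passed the test across all 57258, in which limma called 0 (0%) higher and 0 (0%) lower at an adjusted p under 0.05. The lowest adjusted p was 1, so this holds for every gene named here. At an unadjusted p under 0.05 limma gave 505 of the 57258 probe sets, 453 higher and 52 lower with glutamine. That is less than the share of 0.05 which this threshold would give if no probe set differed. Nothing is read from the split.

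Over the 4 arrays the genes fell into different patterns. Chitinase, Cht2 and Cht-3 differed more within number 2 than within number 1, with log2 differences of 1.91 against 1.08, 1.10 against 0.46 and 0.74 against 0.31. Chib3H-h, RIXI and Agglutinin differed about equally, at 1.23 against 1.08, 0.56 against 0.64 and 0.97 against 1.11. This grouping belongs to the log2 scale. In intensity units chitinase differed by 43.7 within number 1 and 47.5 within number 2. Chib3H-h differed by 44.1 and 33.0 and Agglutinin by 27.4 and 36.4, while Cht2, Cht-3 and RIXI kept their pattern. Once each gene was centred on its own mean, the closest pair was Cht-3 and RIXI, with a root mean square distance of 0.14 log2 units over the 4 arrays. Cht2 and Cht-3 followed at 0.18, and chitinase and Chib3H-h were 0.25 apart. Chitinase and Agglutinin were the farthest apart at 0.77. The values were centred but not scaled, so genes that differ little between arrays come out close whatever their pattern. With 4 arrays, these distances describe the arrays and carry no test.

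**Figure D2:**
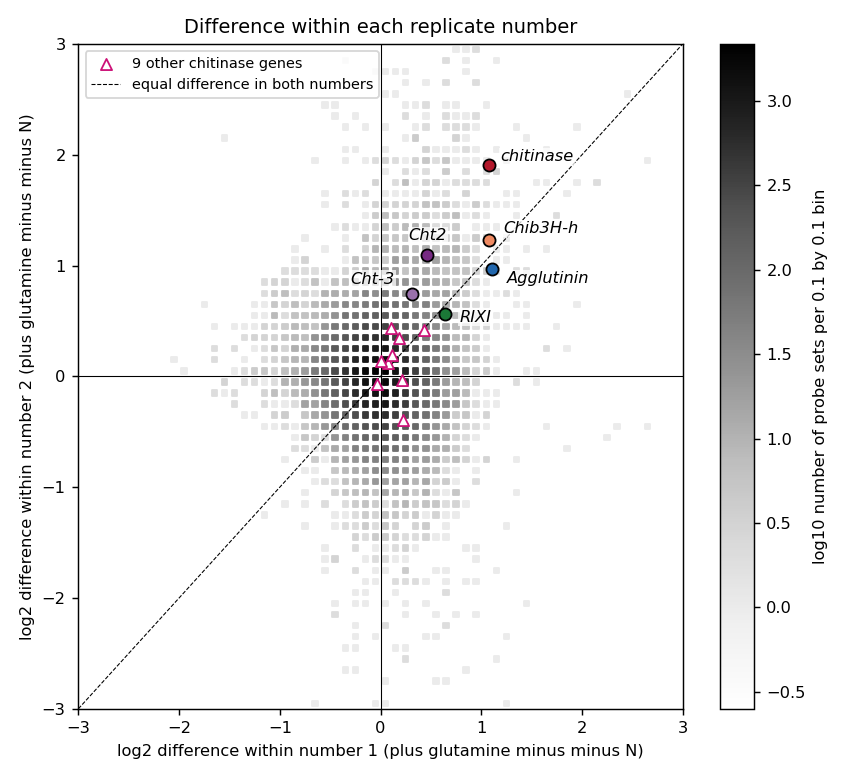
Log2 difference between plus glutamine and minus N arrays within number 1 (x axis) and within number 2 (y axis); grey squares count all probe sets in bins on a log10 scale, coloured points are the 6 genes, triangles the 9 other chitinase genes, and 33 probe sets lie outside the axes. The 6 genes lie in the upper right, with chitinase, Cht2, Cht-3 and, by little, Chib3H-h above the dashed line of equal difference. The other chitinase genes lie between -0.03 and 0.43 within number 1 and between -0.39 and 0.44 within number 2.

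Leaving out single arrays moved the sizes. It could not turn the signs, because both plus glutamine arrays lay above both minus N arrays for each gene. Chib3H-h gave 0.81 and Cht2 0.61 (log2 difference) once minus N replicate 2 was left out, and 1.5 and 0.95 once minus N replicate 1 was. For chitinase the value ran from 0.91 without minus N replicate 2 to 2.08 without minus N replicate 1. For Agglutinin it ran from 0.69 without minus N replicate 1 to 1.39 without minus N replicate 2. Cht-3 gave 0.32 without plus glutamine replicate 2 and 0.73 without plus glutamine replicate 1. RIXI stayed between 0.53 and 0.67. All 6 differences were therefore above 0 in each of these 4 fits. Of them, 1 was at least 2-fold without minus N replicate 2 and 2 without any other array.

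**Figure D3:**
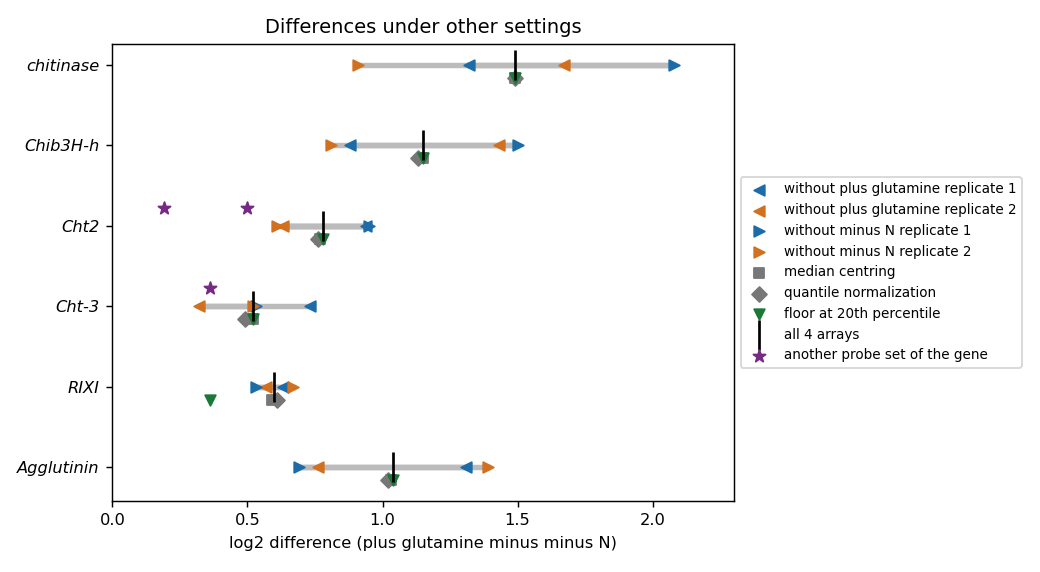
Log2 difference of each gene (x axis, plus glutamine minus minus N) with all 4 arrays, without each array, after other normalizations, with a floor, and on other probe sets of the gene. The widest bar is that of chitinase, 0.91 to 2.08, the narrowest that of RIXI, 0.53 to 0.67, and every mark lies above 0. For the fits without an array this follows from the lack of overlap between the groups. The genes were chosen with this difference in view, so nothing is read from the signs under the other settings.

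The other measured chitinase genes had log2 differences between -0.08 and 0.42. The gene table holds 15 chitinase genes by name, of which 13 have a probe set. Of the 9 outside the 6 genes, 2 had no overlap and were higher with glutamine, 0 were lower without overlap and 7 overlapped, against 8.36% of all probe sets higher and 8.22% lower without overlap, with 0 called by limma in either direction. Their median log2 difference was 0.10, and the numbered pairs gave medians of 0.11 and 0.14. This list was drawn up with earlier results of these data known.

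Cht6 was the nearest to the 6 genes, at 92.6 and 106.5 with glutamine against 68.7 and 79.7 in minus N roots. Its log2 difference was 0.42 (SE 0.22), with 0.43 and 0.42 within the numbers. Cht11 read 115.8 and 101.7 against 108.2 and 75.2, with overlap (0.27, SE 0.27). In Cht10 and Rcb4 the arrays numbered 2 were the brighter in both groups, and the groups overlapped. Cht10 read 795.4 and 1019.9 with glutamine and 755.2 and 939.6 without nitrogen (0.10, SE 0.25). The gene Rcb4 read 477.5 and 571.5 against 409.1 and 749.1, and its difference changed sign between the numbers, at 0.22 and -0.39. The remaining genes Cht7, Cht9, Cht5 and Cht4 were dim, with intensities between 3.8 and 11.1 on all arrays. Cht4 had no overlap, at 4.3 and 5.1 against 3.8 and 4.0.

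Some neighbours of these genes were higher with glutamine and others overlapped between the groups. Cht-1, also named RC24 and OsChia1a, is the next gene to Cht-3 on chromosome 6 among those measured. It read 158.8 and 251.1 with glutamine against 147.6 and 220.7 in minus N roots, so the groups overlapped (log2 difference 0.15, SE 0.34). Of the 6 measured genes that flank this pair, 3 on each side, 2 were higher without overlap, as were 8.36% of all probe sets. LOC4342108 read 58.1 and 46.9 against 37.8 and 35.2, and OsMac1 read 82.6 and 133.4 against 73.8 and 62.3. Their log2 differences of 0.52 and 0.63 are of the size of that of Cht-3. On chromosome 11, 3 measured genes lie between chitinase and RIXI and carry only locus numbers. LOC4351190 read 15.0 and 25.5 against 14.9 and 41.2, LOC4351191 read 10.9 and 16.7 against 11.8 and 19.1, and LOC4351192 read 21.6 and 30.1 against 21.6 and 24.8. All 3 overlapped between the groups, with log2 differences of -0.34, -0.15 and 0.14, and in each the arrays numbered 2 were the brighter. Of the 6 measured genes on the flanks there, also 3 on each side, 2 were likewise higher without overlap, and the same 8.36% applies. LOC4351197 read 43.4 and 47.3 against 33.8 and 10.2, a log2 difference of 1.29 (SE 0.57), which lies between those of Chib3H-h and chitinase. It was made up of 0.36 within number 1 and 2.21 within number 2. The dim LOC4351186, next to Chib3H-h, read 5.3 and 4.7 against 4.1 and 4.4. These neighbours were looked up after the values had been seen.

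**Figure D4:**
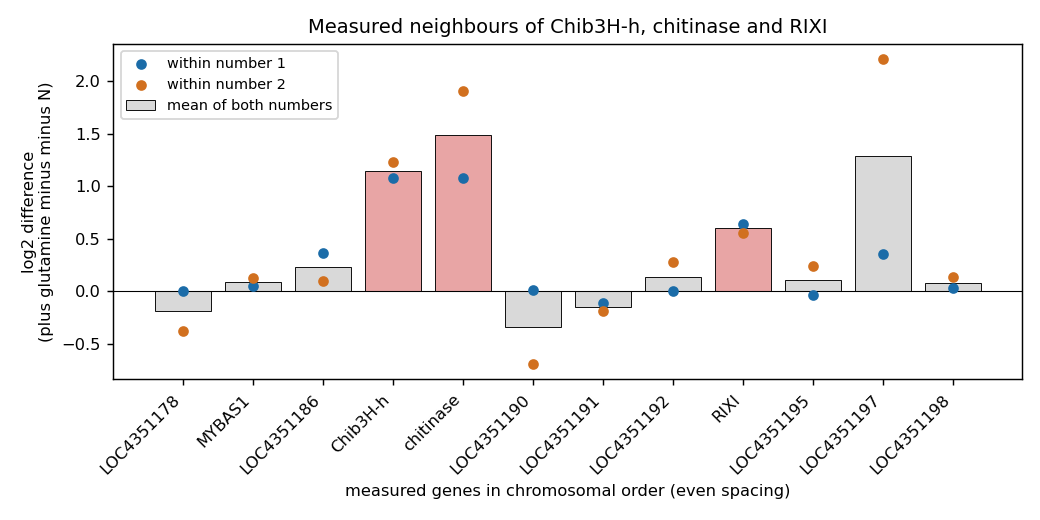
Log2 difference (y axis, plus glutamine minus minus N) of the measured genes around Chib3H-h, chitinase and RIXI, in chromosomal order with even spacing; bars are the mean of both numbers, red for the 3 named genes, and points the difference within each number. Chib3H-h and chitinase stand at 1.15 and 1.49 beside each other, and the 3 genes between chitinase and RIXI lie between -0.34 and 0.14. LOC4351197, on the flank, stands at 1.29, with 0.36 within number 1 and 2.21 within number 2.

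The lectin list held 1 gene besides Agglutinin. SalT, also named ML and MRL, encodes a mannose-binding jacalin-type lectin known as a salt-stress marker in rice. It read 518.2 and 515.3 with glutamine against 626.2 and 510.3 in minus N roots, with overlap and a log2 difference of -0.13 (SE 0.22). Its other probe set read 335.1 and 355.9 against 415.6 and 376.3, lower without overlap (-0.20, SE 0.21). RIXI was the single xylanase inhibitor matched by name, and no beta-1,3-glucanase was matched by name. The other pathogenesis-related list held PBZ1, a pathogenesis-related protein of rice induced by the chemical probenazole, and the protease inhibitor gene RBBI3.3. PBZ1 read 4186.9 and 3100.4 against 4179.4 and 2694.3, and RBBI3.3 read 5561.5 and 5013.2 against 5125.5 and 5132.6, and both overlapped.

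Of the genes that sense chitin and act upstream of defence genes, all 6 measured overlapped between the groups and 0 were called. Overlap is the usual state on these arrays, where 8.36% of all probe sets were higher and 8.22% lower without it, so this count is no result about these genes. They had a median log2 difference of 0.01, made up of 0.25 within number 1 and -0.11 within number 2. CEBIP, the chitin-binding receptor, read 185.1 and 172.2 with glutamine against 153.6 and 211.6 in minus N roots (-0.01, SE 0.25). CERK1, its partner kinase (the gene also named RLK9), read 285.1 and 442.9 against 264.3 and 446.1 (0.05, SE 0.36). RBOHB, an NADPH oxidase, read 467.3 and 706.6 against 398.7 and 788.9 (0.04, SE 0.41). LYP4, another LysM receptor, Rac1, a small GTPase of rice immunity, and RLK10 lay between -0.15 and 0.20. For RBOHB and CERK1 the arrays numbered 2 were brighter in both groups, so the repeats differed more than the groups.

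Of 25 measured genes of phenylpropanoid and phytoalexin enzymes, 4 were higher without overlap, 2 lower and 19 overlapped, with 0 called and a median log2 difference of 0.06. Of the 6 brightest, 4CL5, a 4-coumarate CoA ligase gene of lignin and phenolic synthesis, had the largest difference. It read 1390.7 and 1912.8 with glutamine against 893.2 and 815.7 in minus N roots (log2 difference 0.93, SE 0.25), and the numbered pairs gave 0.64 and 1.23. The other bright members had smaller differences, with PAL at -0.06, 4CL3 at 0.06, 4CL4 at 0.01, 4CLL1 at -0.22 and CYP99A3 at -0.08. Of these, 4CLL1 was lower and 4CL3 higher without overlap. The other probe sets of PAL disagreed, from -0.48, lower without overlap, to 0.34, higher without overlap. PAL encodes phenylalanine ammonia-lyase, which opens the pathway, and CYP99A3 a cytochrome P450 of momilactone synthesis. Over the 43 genes of these lists other than the 6 described, 6 were higher and 2 lower without overlap, against 8.36% and 8.22% of all probe sets, and the median log2 difference was 0.06.

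**Figure D5:**
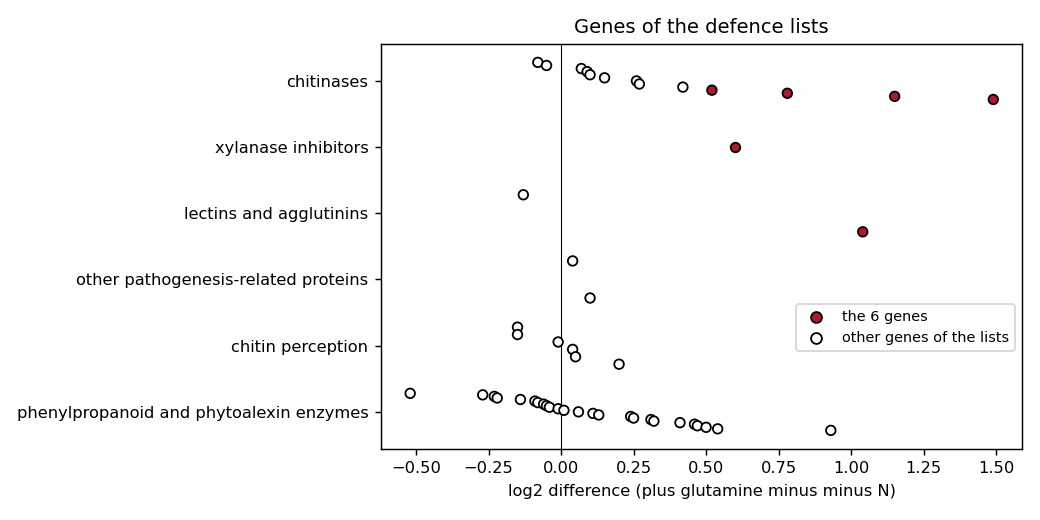
Log2 difference (x axis, plus glutamine minus minus N) of each measured gene of the defence lists, 1 probe set per gene; red points are the 6 genes described, white points the others. The other chitinases lie between -0.08 and 0.42, the chitin perception genes between -0.15 and 0.20, and 4CL5 at 0.93 is the farthest right of the white points.

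Among 2452 other genes that carry a name, the profiles over the 4 arrays most like each of the 6 were found by the root mean square distance of centred log2 values. The 2 nearest to chitinase were JAZ9, a repressor of jasmonate signalling, at 0.126, and ITPK4, an inositol phosphate kinase gene, at 0.163. JAZ9 read 844.2 and 773.7 with glutamine against 428.7 and 163.2 in minus N roots, and minus N replicate 2 was its lowest array, as for chitinase. Nearest to Chib3H-h were JAZ13 at 0.113 and the lipoxygenase gene CM-LOX1 at 0.138. JAZ13 read 631.2 and 517.4 against 325.2 and 180.8. Nearest to Cht2 were the MYB factor gene OsMyb4 (0.031; 1966.1 and 2404.4 against 1416.0 and 1071.5) and the cytokinin oxidase gene CKX4 (0.034). Nearest to Cht-3 were CYP734A4, a cytochrome P450 gene, at 0.017, and the catalase gene CAT-A at 0.044. Nearest to RIXI were CYP71P1, which makes serotonin from tryptamine, at 0.072, and ADC2, an arginine decarboxylase gene, at 0.080. CYP71P1 was also dim, at 7.0 and 7.0 against 4.9 and 5.2, while ADC2 read 372.7 and 380.8 against 269.3 and 266.0. Nearest to Agglutinin were the auxin efflux carrier gene PIN5, at 0.070, and NAC45 at 0.112. PIN5 read 59.3 and 89.1 with glutamine against 30.1 and 42.6 in minus N roots. With 4 arrays and this many genes, close profiles occur without any relation between genes, and the distances rank genes only on these arrays.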

How the data were processed

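Roots of 2 groups with 2 arrays each were measured. The authors deposited linear intensities, 1 for each probe set and array. Per the submitters' processing notes, the tools were GCOS and RMA, with no version or role. The sources used here do not state how values were summarised. Values ran from 2.9 to 21202.3, and log2 was taken without further normalization. The 123 controls were left out. The annotation gives 1 gene to 22436 probe sets, several to 95 and none to 34727, which stay unnamed. Names came from a RefSeq gene table (assembly ASM3414082v1). A gene with several probe sets is given by the brightest.

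The comparison used lmFit and eBayes of limma 3.58.1 in R 4.3.3, with group as the single term, two-sided, with Benjamini-Hochberg adjustment over 57258 probe sets, after testing on simulated data. No overlap means both arrays of one group above both of the other. The 6 genes and the lists were chosen with earlier results of these data known. Named genes are the 6, all genes of the chitinase, xylanase inhibitor and lectin lists, the 6 brightest of each other defence list, and the 2 named genes nearest each of the 6. The root, green and seed marker lists are outside this rule and only describe the tissue. Lists are patterns on symbols. Names that match by accident (tubby-like proteins as TLP, NPR1 as PR2, an actin as RAC1, MADS3 as RAG) were removed. The neighbours on the chromosome were added after the values were seen. Promoter and protein sequences were not used here. Precision is limited by the number of arrays. Figures used matplotlib 3.10.9.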

Additional observations from a re-analysis of the deposited data

How the results depend on the processing

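All 6 differences stayed above 0 under median centring, quantile normalization and a floor at the 20th percentile. Centring could hardly turn a sign, as the arrays' medians were close, at 19.7 to 22.2. The floor could not, as it lay below every plus glutamine value of the 6 genes. The genes were chosen with this difference in view, so nothing is read from these signs. The omission of any 1 array left the 6 differences above 0 too, as it must for genes without overlap between the groups. With 1 array left out, the log2 difference ranged from 0.91 to 2.08 for chitinase, 0.81 to 1.5 for Chib3H-h, 0.61 to 0.95 for Cht2, 0.32 to 0.73 for Cht-3, 0.53 to 0.67 for RIXI and 0.69 to 1.39 for Agglutinin; the lone array of a group is then assumed to vary like the other group. RIXI was 0.36 with the floor, which lifts its minus N values, and Cht2 was 0.50 and 0.19 on its other probe sets. Separated by at least 2-fold and without overlap were 225 probe sets higher and 19 lower. It was 699 and 133 at a 1.5-fold minimum, 49 and 0 at 3-fold, and 312 to 766 and 57 to 421 with 1 array left out, where a single array cannot overlap itself. Limma called 0 probe sets in all these fits, and also without the dimmer 50% of probe sets, with a trended and robust prior and without _x_at and _s_at probe sets. The median of the 43 other list genes ran from -0.07 to 0.21 with 1 array left out, and 9 to 15 of them changed sign. Of these 43 genes 35 overlapped between the groups, so their signs could turn in such fits while those of the 6 genes could not.

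Deviations of same-numbered arrays from their group means correlated at 0.67 across probe sets, but the labels do not say that a number marks a shared batch. With the replicate block, limma again called 0 probe sets. The log2 differences were as without it (1.49 for chitinase), as they must be when each number has an array in each group. All SEs given are from the fit without the block, so they include the spread between the numbers. The depth of an array is not known, and values near those of RIXI have no known distance from background.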
